A study of Homo sapiens with 6 samples.

Results

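Complement is a set of plasma and membrane proteins that tag and lyse foreign cells, and 9 of its genes are described here in HCT116, a human colorectal carcinoma cell line. They are C1R, C1S, C3, CFB, SERPING1, CFI, CD46, CD55 and CD59, and they were taken by gene symbol. All 9 were found, each in 1 row, among the 61806 genes of the table. RNA was sequenced from 3 control libraries (si-NC, genotype labelled wildtype), whose cells received a control interfering RNA duplex, and from 3 libraries labelled STRIP2 knockdown (si-STRIP2), whose cells received a duplex against STRIP2 mRNA. All libraries came from this 1 cell line grown in the same medium with serum, and the sources used here give no dose, no time after transfection and no siRNA sequence. STRIP2 encodes a scaffold of the STRIPAK phosphatase and kinase complex, and the comparison asked which transcripts differ when its level is lowered.

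The classical pathway starts when the proteases C1r and C1s are switched on by bound antibody, and all routes meet at C3, whose cleavage deposits C3b on a surface. Factor B joins C3b to form the convertase of the alternative pathway, which amplifies the deposit. A cell protects itself with membrane regulators: CD55 takes convertases apart, CD46 helps the plasma protease factor I to cut C3b, and CD59 blocks the final membrane pore. Epithelial cells and many carcinomas carry these 3 regulators at their surface, while the liver makes most of the soluble components.

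The deposited totals ranged from 17184963 to 21721218 counts per library. No pair of libraries within a group agreed within sampling noise (chi-square per degree of freedom 2.14 to 16.7, where counting noise alone gives about 1). STRIP2 itself had 407, 384 and 385 counts in si-NC and 299, 260 and 261 in si-STRIP2, so that 72.8% of its control level was left by the fit (log2 fold change -0.46, SE 0.083, edgeR adjusted p = 1.62e-05). The 9 epithelial markers had a summed level of 668 to 721 FPKM (fragments scaled to exonic length and library total, as deposited). EPCAM, KRT8, KRT18 and KRT19 gave most of this sum. KRT20 was at 0.24 to 0.72 FPKM, VIL1 had 0 to 3 counts and CDX1 had 0 counts in every library. Summed counts of the 6 leukocyte markers were 9 to 22 per library. CD68 had 3 to 13, CSF1R 0 to 7 and PTPRC 1 to 5, and TYROBP had 0 counts in every library. Summed counts of the 4 endothelial markers were 48 to 58 in si-NC and 22 to 29 in si-STRIP2, most of them from KDR, while CDH5 had 0 or 1 count. Summed counts of the 6 fibroblast markers were 338 to 438 in si-NC and 296 to 357 in si-STRIP2, nearly all from COL1A1, with COL1A2 at 0 in every library. The part of these markers in the results below was not tested.

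Of the 9 complement genes, 7 had enough counts to be tested, and 4 of these were significantly lower (called) in si-STRIP2 at an edgeR adjusted p under 0.05 while 0 were called higher (0 also at an unadjusted p under 0.05 and under DESeq2). Those that fell were CD55, CD59, CD46 and SERPING1, the inhibitor of the C1 proteases. C1R, C1S and C3 were not called, and CFB and CFI were too low to enter the test. The background is high in this comparison, since 54.8% of all 15687 tested genes were called, with 27.0% of tested genes lower and 27.8% higher. The 57.1% of tested complement genes that were called is near that background. The median log2 fold change was -0.27 over the 7 genes and 0.014 over all tested genes. The groups did not overlap for 5 of the 7, each time with every si-STRIP2 library below every si-NC library, where 59.7% of all tested genes had groups apart and 29.5% had si-STRIP2 below. SERPING1 reached the level needed by the low-count filter in all 3 si-NC libraries and in 1 of 3 si-STRIP2 libraries. It would not have passed on the si-STRIP2 libraries alone, and these counts are given as a description.

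**Figure D1:**
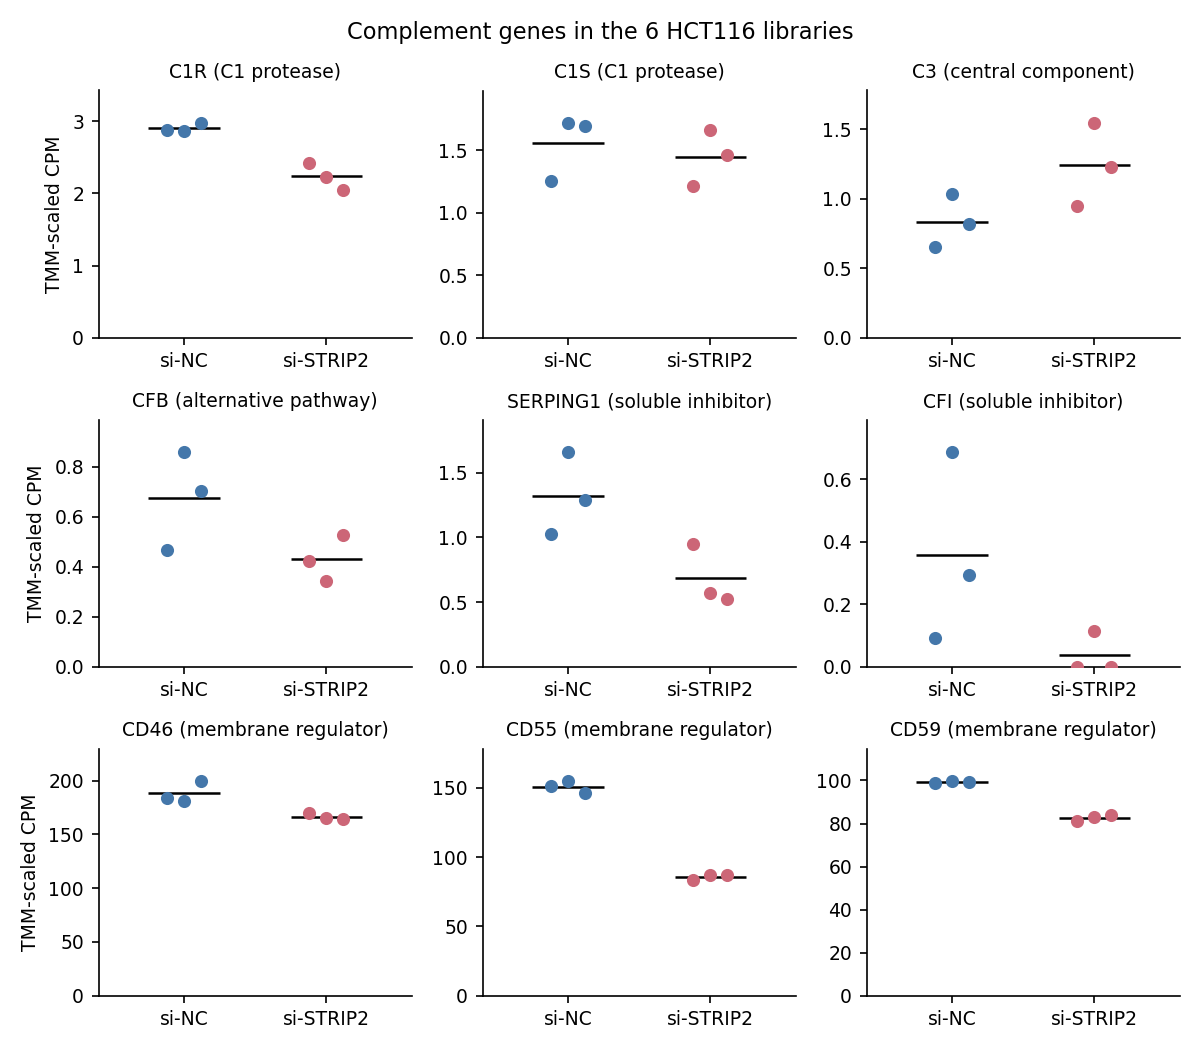
Vertical axes, from 0, show CPM (counts scaled to library totals adjusted by TMM, a trimmed mean of ratios) of the 9 complement genes in the 3 si-NC and the 3 si-STRIP2 libraries, with points for libraries and lines for group means. CD46, CD55 and CD59 are the 3 genes above 80 CPM, and in each the si-STRIP2 points lie below the si-NC points.

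The membrane regulators were by far the most abundant of the 9 genes. CD55 (ENSG00000196352, chromosome 1, 207321519 to 207386804, plus strand), the decay-accelerating factor, had 14.61, 15.23 and 14.16 FPKM in the si-NC libraries and 8.23, 8.47 and 8.41 FPKM in the si-STRIP2 libraries. The groups were far apart, and the lowest control library was well above the highest si-STRIP2 library. The mean level went from 14.7 ± 0.537 to 8.37 ± 0.125 FPKM (SD, n = 3). CD55 fell to 56.9% of control (log2 fold change -0.81, SE 0.042, 95% interval -0.90 to -0.73, edgeR adjusted p = 2.19e-17). Of all tested genes, 4.64% had a lower fold change, and 715 called genes fell further. In bulk RNA, fewer cells that express a gene and less RNA per cell cannot be told apart.

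CD59 (ENSG00000085063, chromosome 11, 33703010 to 33736479, minus strand), the inhibitor of the membrane attack complex, had 9.27, 9.53 and 9.36 FPKM in si-NC and 7.76, 7.83 and 7.86 FPKM in si-STRIP2. The 3 values of each group lay close together and the groups did not overlap. The mean went from 9.39 ± 0.132 to 7.82 ± 0.0513 FPKM (SD, n = 3), or 83.1% of control (log2 fold change -0.27, SE 0.042, edgeR adjusted p = 2.05e-06).

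CD46 (ENSG00000117335, chromosome 1, 207752037 to 207795513, plus strand), the membrane cofactor protein, had 11.71, 11.78 and 12.84 FPKM in si-NC and 11.03, 10.64 and 10.54 FPKM in si-STRIP2. Here the groups were separate but close, and si-NC replicate 3 stood above the other controls. The mean went from 12.1 ± 0.633 to 10.7 ± 0.259 FPKM (SD, n = 3), or 88.5% of control (log2 fold change -0.18, SE 0.042, edgeR adjusted p = 0.000616). Without that library the log2 fold change was -0.14 (edgeR adjusted p = 0.00381). Genes that overlap CD46 and CD59 in the table held 0.0103% and 0.23% as many counts as these genes, and no gene overlapped CD55.

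The 3 regulators were compared with one another within each library. The ratio of CD55 to CD59 counts, from which library depth cancels, was 1.53, 1.55 and 1.47 in si-NC and 1.03, 1.05 and 1.04 in si-STRIP2. The ratio of CD55 to CD46 counts was 0.825, 0.855 and 0.73 in si-NC and 0.493, 0.526 and 0.528 in si-STRIP2. Neither ratio overlapped between groups, and on the log2 scale they differed by -0.55 and -0.64 (exact permutation test, 2-sided, p = 0.1 for each, the smallest that 3 against 3 allows, and 0.15 after Benjamini-Hochberg adjustment over 3 ratios). The ratio of CD59 to CD46 was 0.539, 0.551 and 0.497 in si-NC and 0.479, 0.501 and 0.508 in si-STRIP2. These values overlapped (log2 difference -0.091, exact permutation p = 0.3).

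The summed level of the 3 regulators was 36.2 ± 0.505 FPKM in the controls against 26.9 ± 0.106 (SD, n = 3; exact permutation p = 0.1, the smallest possible). CD55 supplied 40.6% ± 1.43 of that sum in the controls and 31.1% ± 0.547 after STRIP2 knockdown (SD, n = 3), while the share of CD46 was 33.5% ± 1.62 and 39.9% ± 0.823. In FPKM the order of the controls was CD55, CD46, CD59 with no overlap between neighbours. In si-STRIP2 it was CD46, CD55, CD59, again with no overlap, although CD55 and CD59 were then close (8.23 to 8.47 against 7.76 to 7.86 FPKM). The order in si-NC, the distance from CD59 and the shares depend on the gene length used. With the longest protein-coding transcript of GENCODE 29 in place of the deposited exonic size (3371 in place of 15505 bases for CD46, and 2892 in place of 10254 for CD55), recomputed FPKM in si-NC was 53.9, 54.2 and 59.1 for CD46 and 51.8, 54.0 and 50.2 for CD55, which overlap. In si-STRIP2 CD46 was above CD55 with either length, at 48.5 to 50.7 against 29.2 to 30.0 recomputed FPKM. CD59 (7631 in place of 10557 bases) was then far below both, at 12.8 to 13.2 in si-NC and 10.7 to 10.9 in si-STRIP2.

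**Figure D2:**
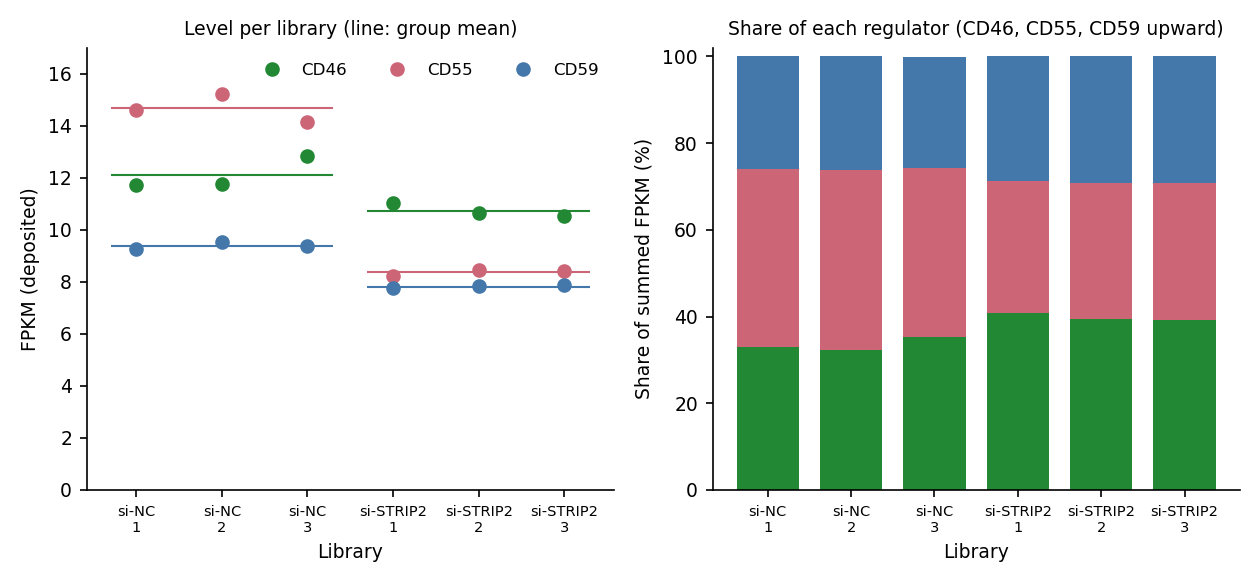
Left, deposited FPKM of CD46, CD55 and CD59 in each library with lines at the group means; right, the share of each in their summed FPKM (bars stacked from 0). CD55 is the highest of the 3 in the si-NC libraries and lies below CD46 in the si-STRIP2 libraries, and its share goes from 40.6% to 31.1%.

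The sequence before a RefSeq start of each of these 3 genes is shown because the 3 fell together. The windows are the 250 bases before a RefSeq transcript start on GRCh38.p14, 5′ to 3′ on the strand of the gene, and for CD46 and CD59 the first of several starts listed was used. The CD46 start was not found in a GENCODE 29 transcript of the gene, while those of CD55 and CD59 were. As the deposited table places the genes, 159 of the 250 bases of the CD55 window lie inside CD55, since the table starts this gene further upstream than RefSeq. Capitals mark matches, on either strand, to motifs of factors known from complement promoters.
CD55 (chr1:207321428-207321677, plus strand): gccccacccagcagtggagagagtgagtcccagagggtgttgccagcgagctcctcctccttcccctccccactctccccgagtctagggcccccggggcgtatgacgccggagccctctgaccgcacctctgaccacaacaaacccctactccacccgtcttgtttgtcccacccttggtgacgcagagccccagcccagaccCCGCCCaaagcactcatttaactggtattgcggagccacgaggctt
CD46 (chr1:207751788-207752037, plus strand): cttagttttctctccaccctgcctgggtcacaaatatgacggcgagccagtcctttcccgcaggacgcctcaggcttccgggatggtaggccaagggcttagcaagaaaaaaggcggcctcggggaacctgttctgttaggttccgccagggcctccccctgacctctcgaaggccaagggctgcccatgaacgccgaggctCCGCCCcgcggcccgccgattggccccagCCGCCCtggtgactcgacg
CD59 (chr11:33736480-33736729, minus strand): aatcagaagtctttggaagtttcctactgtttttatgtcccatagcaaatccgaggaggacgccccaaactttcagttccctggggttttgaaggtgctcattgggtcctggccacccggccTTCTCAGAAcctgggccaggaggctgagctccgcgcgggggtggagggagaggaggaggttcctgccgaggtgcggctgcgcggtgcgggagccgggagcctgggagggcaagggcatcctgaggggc

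The motifs searched were AP-1 (TGANTCA), the cyclic AMP response element (TGACGTNA), Sp1 (GGGCGG), the STAT site GAS (TTCNNNGAA), C/EBP (TTGCNNAA), NF-kB (GGANTTTCC) and the interferon response element (TTCNNTTTC). The CD55 window held 1 Sp1 match, 46 bases before the RefSeq start and inside the gene as the table places it, and the CD46 window held 2, at 48 and 19 bases. Such a match was present in 42.6% of all 35116 windows of this length. The CD59 window held 1 GAS match, 128 bases before the start, as did 6.57% of windows. AP-1 was matched in 6.57% of all windows, the cyclic AMP element in 2.67%, C/EBP in 9.05%, NF-kB in 1.45% and the interferon element in 6.88%, and in none of the 3 shown. None of the 7 motifs was matched in all 3 windows. A match is a description of letters and shows no binding.

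SERPING1 (ENSG00000149131, chromosome 11, 57597387 to 57619171, plus strand) encodes C1 inhibitor, the serpin that blocks C1r and C1s. It had 22, 29 and 22 counts in si-NC and 18, 10 and 9 counts in si-STRIP2. Every si-STRIP2 library was below every si-NC library after scaling, but si-STRIP2 replicate 1 was close to si-NC replicate 1 (0.951 against 1.02 CPM). The mean was 1.32 ± 0.321 against 0.684 ± 0.232 CPM, controls first (SD, n = 3; log2 fold change -0.91, SE 0.318, edgeR adjusted p = 0.0153). The call rests on few counts and was lost under 5 of 14 alternatives. These were DESeq2 (adjusted p = 0.0575), limma on log2(FPKM + 1) (adjusted p = 0.0576), and edgeR without si-NC replicate 2 (adjusted p = 0.101), without si-STRIP2 replicate 2 (0.0649) or without si-STRIP2 replicate 3 (0.0754). Its direction was the same in all 14.

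CFI (ENSG00000205403, chromosome 4, 109731008 to 109802150, minus strand) encodes factor I, the protease that inactivates C3b with CD46 as cofactor. It had 2, 12 and 5 counts in si-NC and 0, 2 and 0 counts in si-STRIP2, and it did not pass the low-count filter. With 2 counts each, si-NC replicate 1 was at 0.0931 CPM and si-STRIP2 replicate 2 at 0.115 CPM, so the groups overlapped after scaling. Over the groups, 2 counts stood against 19, a depth-scaled ratio of 0.111 with an exact 95% interval of 0.0125 to 0.459 that covers counting error only. Of the 19 control counts, 12 came from si-NC replicate 2. Without a filter on low counts, edgeR gave CFI an adjusted p of 0.00589 over 32799 genes.

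The 2 proteases of C1 were expressed at low level. C1R (ENSG00000159403, chromosome 12, 7080214 to 7092540, minus strand) had 62, 50 and 51 counts in si-NC and 46, 39 and 35 in si-STRIP2. All scaled si-STRIP2 values were below all si-NC values (2.24 ± 0.19 against 2.91 ± 0.0613 CPM; SD, n = 3). The test did not call C1R (log2 fold change -0.37, SE 0.19, 95% interval -0.76 to 0.011, edgeR adjusted p = 0.094). It passed under limma on log2(FPKM + 1) (-0.12 on that scale, adjusted p = 0.0494), and under 1 of 14 alternatives in all. The same-strand neighbour C1RL overlaps C1R over 2954 bases and held 1170% as many counts, and how reads of their shared end were assigned was not tested.

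C1S (ENSG00000182326, chromosome 12, 6988259 to 7071032, plus strand) was counted 27, 30 and 29 times in si-NC and 23, 29 and 25 times in si-STRIP2. The groups overlapped, and the data allow a change between -0.61 and 0.42 on the log2 scale (95% interval; fitted value -0.095, edgeR adjusted p = 0.774). LPCAT3 overlaps C1S from the other strand and held 1860% as many counts. Whether the counting used strand is not given in the sources used here, so C1S is uncertain. In FPKM, C1R was above C1S in every library, at 0.35 to 0.51 against 0.15 to 0.21.

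C3 (ENSG00000125730, chromosome 19, 6677704 to 6730562, minus strand), the central component, had 14, 18 and 14 counts in si-NC and 18, 27 and 21 in si-STRIP2. It was the 1 tested gene of the 7 with a fitted value above 0, and the groups overlapped (0.834 ± 0.191 against 1.24 ± 0.298 CPM; SD, n = 3). The log2 fold change was 0.58 (SE 0.305, 95% interval -0.037 to 1.2, edgeR adjusted p = 0.105), and it passed under none of 14 alternatives. At 0.06 to 0.13 FPKM, C3 was near the lower end of expression, with 1.1% of tested genes below it. GPR108 overlaps its start by 649 bases on the same strand and held 4190% as many counts, and how reads of the shared stretch were assigned was not tested.

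Hepatocytes make C3, and the summed counts of 5 hepatocyte markers were 9, 18 and 6 in si-NC and 62, 46 and 8 in si-STRIP2. The 5 differed among themselves. ALB had 27, 23 and 1 counts in the si-STRIP2 libraries and 2, 7 and 2 in si-NC. TTR had 17, 7 and 3 against 1, 0 and 0, and APOB had 6, 5 and 0 against 0, 1 and 0. APOA1 had 2, 1 and 1 against 0, 0 and 0, while FGB had 10, 10 and 3 against 6, 10 and 4. In the same order of replicates, C3 had 14, 18 and 14 counts in si-NC and 18, 27 and 21 in si-STRIP2. The part of these markers in the C3 values was not tested.

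CFB (ENSG00000243649, chromosome 6, 31945650 to 31952086, plus strand), factor B of the alternative pathway, had 10, 15 and 12 counts in si-NC and 8, 6 and 9 in si-STRIP2. It missed the filter with 2 control libraries at the needed 0.575 CPM. After scaling the groups overlapped, and without a filter its log2 fold change was -0.62 (SE 0.427, edgeR adjusted p = 0.357).

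**Figure D3:**
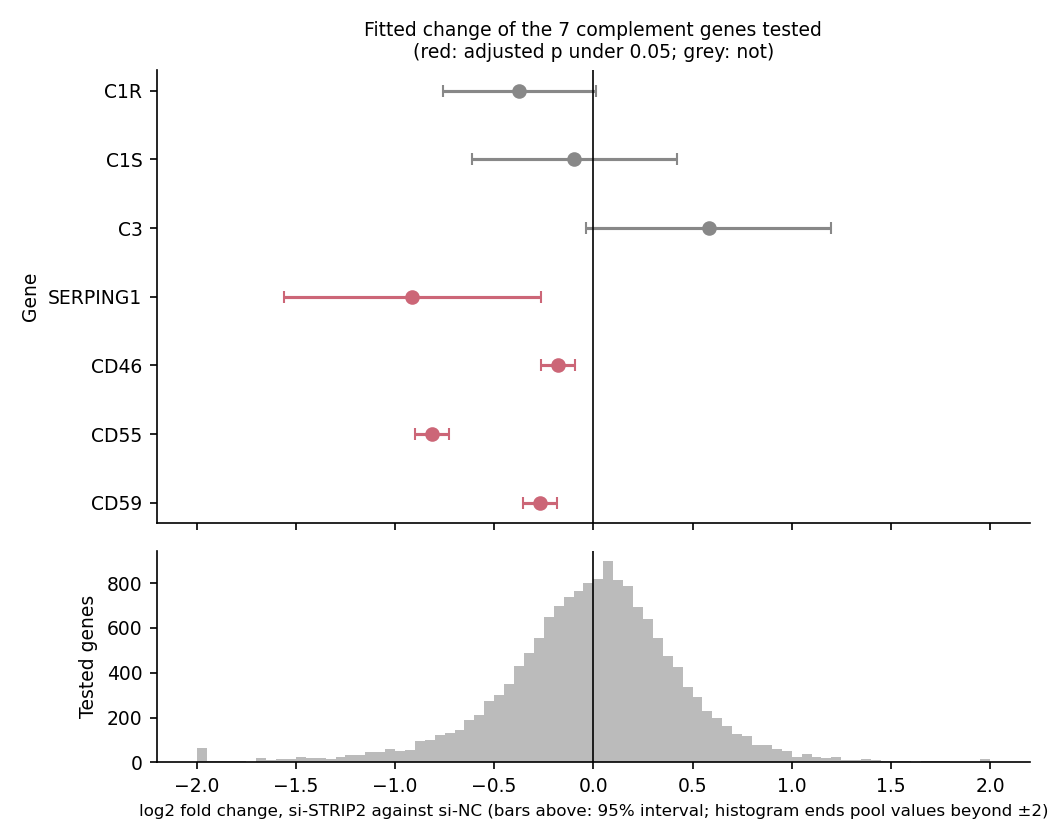
Top, log2 fold change (horizontal axis, si-STRIP2 against si-NC) of the 7 tested complement genes with 95% intervals, red where the edgeR adjusted p was under 0.05; bottom, the same quantity for all 15687 tested genes. The interval of CD55 spans -0.90 to -0.73, while those of C1R, C1S and C3 cross 0.

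Across the other 50 complement genes listed, expression in these cells was sparse. There were 0 counts in every library for 15 of them, among them C1QA, C1QB and C1QC of the antibody-binding C1q, and 11 could be tested. Of the 11, 7 were called lower and 3 higher, 90.9% against the 54.8% of all tested genes, with a median log2 fold change of -0.55. COLEC12 and ITGAX, both among the 7, had 0 and 2 of 3 si-STRIP2 libraries at the 0.575 CPM that the low-count filter needed. Neither would have passed on the si-STRIP2 libraries alone, so these counts are a description. Under DESeq2 6 of the 11 were called, 4 lower and 2 higher, beside 7238 of all 15687 tested genes (3682 lower and 3556 higher). Those described first reached 1 FPKM in the mean of one group or the other.

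CLU, or clusterin, a soluble inhibitor of the terminal pore, was the most clearly lower of these, with 1772, 1433 and 1447 counts in si-NC and 1002, 986 and 926 in si-STRIP2. Its level was 13.2 ± 0.21 FPKM against 8.67 ± 0.262 (SD, n = 3; log2 fold change -0.61, edgeR adjusted p = 3.13e-13), a size between those of CD59 and CD55. CR2, the receptor for C3d, lies next to CD55 in the complement regulator cluster of chromosome 1 (207453024 to 207489895, plus strand). It had 195, 193 and 181 counts in si-NC and 94, 97 and 100 in si-STRIP2, with groups far apart. Its log2 fold change was -0.90 (SE 0.12, edgeR adjusted p = 8.26e-08). Of the other genes of this cluster that were listed, CR1 had 2 counts over all libraries, C4BPA had 1 and C4BPB had 0, so that CD55, CR2 and CD46 were the 3 expressed there, and all 3 were lower. C1RL, a protease related to C1r, fell by 0.24 on the log2 scale (edgeR adjusted p = 0.00358), and overlapping genes held 39.4% as many counts.

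The 3 genes called higher were C1QBP, MASP2 and CFD. C1QBP, a mostly mitochondrial protein that can bind C1q, went from 132.8 ± 7.32 to 178.4 ± 4.74 FPKM (SD, n = 3; log2 fold change 0.42, edgeR adjusted p = 2.05e-10). MASP2, a protease of the lectin pathway, had a log2 fold change of 0.62 (edgeR adjusted p = 0.00124), and CFD, the protease that cleaves factor B, one of 0.40 (edgeR adjusted p = 0.0212). Overlapping genes held 40.1% as many counts as C1QBP, 4330% as many as MASP2 (TARDBP) and 627% as many as CFD (MED16), so the latter pair is uncertain. The called genes under 1 FPKM, named after their values were seen, were COLEC12 (log2 fold change -2.42), ITGAX (-0.99), SUSD4 (-0.77) and C5 (-0.55), all lower. COLEC12 entered the test through the si-NC libraries alone, while ITGAX had 3 si-NC and 2 si-STRIP2 libraries at the needed level.

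**Figure D4:**
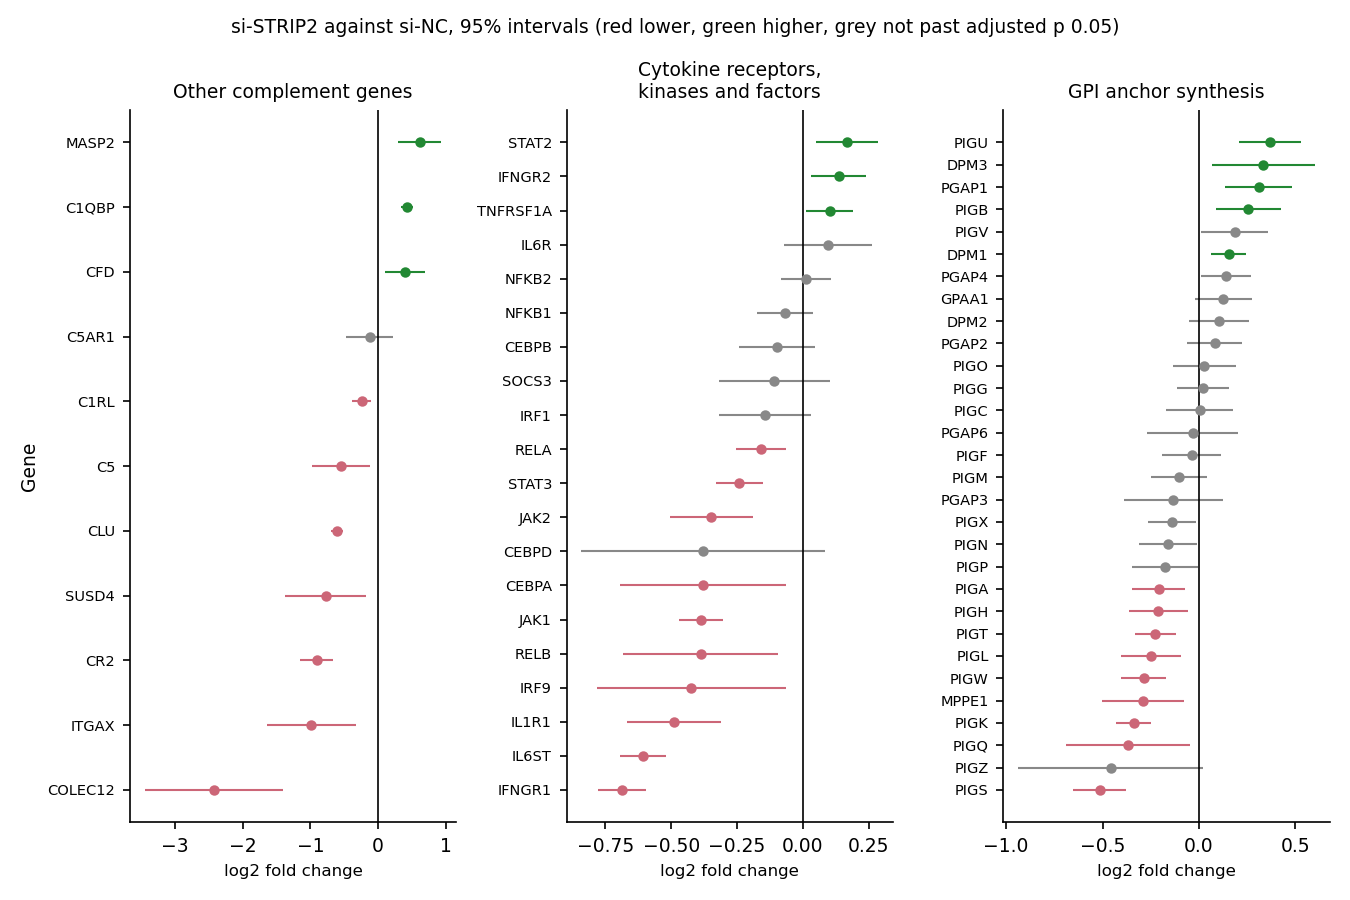
Log2 fold change (si-STRIP2 against si-NC, horizontal axes of different range) with 95% intervals is shown for tested genes of 3 lists. These are other complement genes, cytokine receptors with their kinases, transcription factors and SOCS3, and genes of GPI anchor synthesis. IFNGR1 and IL6ST are the lowest of the second list, and PIGS is the lowest of the third.

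Interferon-gamma, interleukin-6 and interleukin-1 raise many complement genes, and 21 genes of these and related routes were listed. They are receptors (among them TNFRSF1A, for tumour necrosis factor), kinases, transcription factors and the feedback inhibitor SOCS3. All 21 were tested, 11 were called lower and 3 higher (66.7% called, beside 54.8% of all tested genes, 27.0% lower and 27.8% higher). The median log2 fold change of the 21 was -0.24. IFNGR1, a chain of the interferon-gamma receptor, had 1765, 1428 and 1421 counts in si-NC and 969, 906 and 861 in si-STRIP2 (log2 fold change -0.69, edgeR adjusted p = 1.11e-14). IL6ST, the signalling chain shared by interleukin-6 family receptors, went from 10.4 ± 0.447 to 6.83 ± 0.0404 FPKM (SD, n = 3; log2 fold change -0.61, edgeR adjusted p = 4.47e-14). IL1R1 (-0.49), JAK1 (-0.39) and STAT3 (-0.24) were lower as well, the largest edgeR adjusted p among them being 1.77e-05 for STAT3. Overlapping genes held 44.6% as many counts as JAK1. The 3 higher genes, STAT2 (0.17), IFNGR2 (0.14) and TNFRSF1A (0.10), changed by little. Under DESeq2, 0 genes of this list were called higher and 8 lower, beside 3556 and 3682 of all 15687 tested genes.

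CD55 and CD59 are attached to the membrane by a glycosylphosphatidylinositol (GPI) anchor, and 31 genes of its synthesis and attachment were listed. Of the 30 tested, 9 were called lower and 5 higher (46.7% called, beside 54.8% of all genes), with a median log2 fold change of -0.072. PIGK, PIGS, PIGT, PIGU and GPAA1 form the enzyme that joins the anchor to a protein, and their values went in different directions. PIGK, its catalytic subunit, had a log2 fold change of -0.34 (edgeR adjusted p = 5.56e-08), PIGS of -0.52 (6.74e-08) and PIGT of -0.23 (0.000396). RSKR, which overlaps PIGS, held 32.4% as many counts. PIGU was higher at 0.37 (edgeR adjusted p = 0.000196), though the overlapping NCOA6 and a further gene held 384% as many counts. GPAA1 was not called (0.13, edgeR adjusted p = 0.14). Of the enzymes outside this complex, PIGW, an inositol acyltransferase, was lower (-0.29, overlapping genes at 261% of its counts) and PGAP1, which removes that acyl chain, was higher (0.31).

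The genes most like 2 of the members across the 6 libraries were read off as a description. For CD55, the member with the highest mean FPKM, the closest by Pearson correlation of log2(CPM + 1) were YPEL5 (0.9999), YAP1 (0.9998) and TCF12 (0.9998), with log2 fold changes of -0.91, -1.05 and -0.63. As many as 448 of the 6656 genes searched had a correlation over 0.99 with CD55, and these libraries form only 2 groups. For C3 the closest were POP4 (0.9758), PHF5A (0.9730) and SMC5 (0.9714), and none of the 6656 exceeded 0.99.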

How the data were processed

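Poly(A) RNA of 6 HCT116 libraries was sequenced from directional libraries, per the labels' protocols. The authors deposited, per the file headers, a raw count and an FPKM value per gene and library. The FPKM values, recomputed from count, exonic size and column total, differed by at most 0.005. The submitters' processing notes name bcl2fastq 2.20.0.422, FastQC 0.10.1, cutadapt 1.9.1, HISAT2 2.2.1, HTSeq 0.6.1 and GRCh38.p13. The annotation release and whether counting used strand are not given in the sources used here.

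Counts were tested in R 4.3.3 with edgeR 4.0.16 (filterByExpr with minimum count 10, TMM scaling, quasi-likelihood F test, 2-sided, group as the only term), with Benjamini-Hochberg adjustment over 15687 genes and a threshold of 0.05. Standard errors are the absolute log2 fold change over the square root of F. Alternatives used DESeq2 1.42.0, limma 3.58.1 on log2(FPKM + pseudocount), other scalings and filters, and each library left out. Simulated data held 15687 genes, with 50 of them changed at each fold. The edgeR test recovered 42% of genes changed 1.2-fold, 70% at 1.5-fold, 90% at 2-fold and 100% at 4-fold. Of its calls there, 6.79% were unchanged genes. Far fewer genes were changed in the simulation than the 54.8% called in the data. These shares therefore do not give the power of this comparison.

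The 9 genes and the lists were chosen with earlier results of these data known. All 9 are named. From the other lists, at most 6 called genes with at least 1 FPKM in either group were named by smallest adjusted p, besides genes that overlap a member. GPAA1 and the small rises of the receptor list were named after their values were seen. One gene that this rule covers is not reported here, though list counts include it. Likeness was searched among genes with a mean of at least 5 FPKM. The labels do not say that the libraries of a group were separate cultures, so p-values measure only the spread between these libraries. Depth limits the low genes: 3 counts in a library cannot be told from 0. Promoter windows were matched by symbol in a RefSeq table for 6 of the 9 genes (GRCh38.p14). The sequences of C3, C1S and SERPING1 were not used here.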

Additional observations from a re-analysis of the deposited data

How the results depend on the processing

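CD46, CD55 and CD59 kept their direction and an adjusted p under 0.05 under each of 15 alternatives, with log2 fold changes of -0.20 to -0.14, -0.84 to -0.74 and -0.29 to -0.24. C3 (0.044 to 0.76) passed under none of 14, and C1R (-0.50 to -0.12) under 1. The ends 0.044 and -0.12 are from limma on log2(FPKM + 1), where the added 1 pulls genes under 1 FPKM towards 0. The lowest edgeR value of C3 was 0.396, without si-STRIP2 replicate 2. C1S was not past the threshold under any, and without si-STRIP2 replicate 1 its log2 fold change was 0.025 in place of -0.095. The number of complement genes called lower was between 3 and 5, in tested sets of different size. It was 3 of 7 tested under DESeq2, beside 3682 of all 15687 genes. With a filter of 1 FPKM it was 3 of 3, beside 3853 of 12329. Without a low-count filter, where CFI was added, it was 5 of 9, beside 4152 of 32799.

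Of the wider complement list, where 10 genes were called, 6 were called under DESeq2, 5 with a filter of 1 FPKM (6 tested) and 6 with si-STRIP2 replicate 3 alone against si-NC, a setting chosen after seeing the data. With 1 library left out, the number was 7 to 10. Of the receptor and factor list, 14 in the main setting, 8 were called under DESeq2, 9 to 12 with 1 library left out (9 without si-NC replicate 1) and 7 with si-STRIP2 replicate 3 alone. The GPI anchor list had 9 in place of 14 in that last setting and 11 to 16 with 1 library left out. Among all tested genes, DESeq2 called 7238 of 15687, and 7488 of 12329 were called with the filter of 1 FPKM. The cause of these changes was not tested. Over all genes, 5970 to 8604 were called. With 1 library in a group, that library is assumed to vary like the controls.

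Replicate numbers are shared between groups, but same-numbered libraries did not deviate together (Pearson -0.0858, -0.0133 and -0.0718 across genes). With the replicate block, 8293 genes, 4 complement genes, 10 of the wider list, 14 of the GPI list and 13 of the receptor list were called.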
